A study of Homo sapiens with 10 samples.

Results

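The 37 genes described here make sterols and fatty acids or govern how much of both a cell makes and exports. They were taken by symbol from a list of 18 sterol synthesis enzymes, 5 regulators of the sterol regulatory element-binding proteins (SREBP), 3 sterol transport genes, 3 genes of efflux or of the liver X receptor (LXR), and 8 fatty acid enzymes. Of the 37, 34 were among the 19775 genes with a probe set that carried a single symbol. FDFT1, CYP51A1 and FADS1 were not analysed here. STARD4 and ELOVL6 lay under the level filter, a mean log2 intensity of 5.787, so 32 of the 11865 genes tested were members.

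The study exposed the human pancreatic tumour cell line MiaPaCa-2 to supernatant of pancreatic stellate cells, the fibroblast-like cells that surround such tumours. The stellate cells had themselves first been primed with medium pooled from 8 tumour cell lines. RNA of 8 treated samples, harvested 1, 2, 3, 4, 5, 6, 7 and 24 h after the supernatant was added, and of 2 control samples without it, labelled 0 and 24 h, was hybridised to Affymetrix U133 Plus 2.0 arrays. The question was how the tumour cells' expression moved with the time of exposure.

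Each time had 1 array, all from 1 cell line, and the sources used here do not give the medium of the controls. No label says that arrays came from separate experiments, so p-values measure the spread between these arrays, which may be technical. The values are the authors' log2 intensities, and a difference of 1 is a doubling. Differences between single arrays are given without a test. Levels were compared within a gene and not between genes, since probe sets differ in brightness. Array medians lay between 5.49 and 5.61. The SD over probe sets was 2.41 on the 2 h array and 2.45 to 2.51 on the others. Of 5 epithelial markers, KRT8, KRT18 and KRT19 were above the filter, while EPCAM and CDH1 were below it on average. Of 9 stellate or fibroblast markers, 5 were above it. Their summed log2 level over all 9 was 57.3 to 60.57 in treated arrays and 59.2 to 59.45 in controls. The part of stellate RNA in the results was not tested. In bulk RNA, fewer cells of a type and less RNA per cell cannot be told apart.

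Cholesterol is built from acetyl-CoA through mevalonate, isoprenoids, squalene and lanosterol, and fatty acids are built from the same precursor. When sterols run low, SCAP escorts the SREBP factors to the Golgi, where they are cut and released to switch on these enzymes. INSIG proteins hold the complex back when sterols are plentiful. LXR, which senses oxidised sterols, drives the exporters ABCA1 and ABCG1 and the ubiquitin ligase MYLIP, so synthesis and efflux genes are known to run in opposite directions.

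Promoter sequence helps to see what these genes have in common besides their function. The 5 promoters below belong to the pair of sterol enzymes with the largest 24 h difference, to the regulator and the fatty acid enzyme with the largest, and to SREBF2. They are RefSeq sequences of build GRCh38.p14, 250 bases up to the annotated start, read 5′ to 3′ on the gene's strand. Capitals mark matches on either strand to CCAAT, to the GC box GGGCGG and to a sterol response element spelled TCACNCCAC. The positions are chr5:43313413-43313662, minus strand, for HMGCS1 and chr4:165327419-165327668, plus strand, for MSMO1. They are chr7:155297628-155297877, plus strand, for INSIG1, chr22:41832855-41833104, plus strand, for SREBF2, and chr17:41919023-41919272, minus strand, for ACLY.
HMGCS1: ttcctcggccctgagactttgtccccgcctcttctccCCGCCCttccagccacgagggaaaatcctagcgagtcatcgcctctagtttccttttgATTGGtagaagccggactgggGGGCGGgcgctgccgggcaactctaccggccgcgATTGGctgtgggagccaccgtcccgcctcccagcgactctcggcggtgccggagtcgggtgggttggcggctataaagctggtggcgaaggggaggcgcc
MSMO1: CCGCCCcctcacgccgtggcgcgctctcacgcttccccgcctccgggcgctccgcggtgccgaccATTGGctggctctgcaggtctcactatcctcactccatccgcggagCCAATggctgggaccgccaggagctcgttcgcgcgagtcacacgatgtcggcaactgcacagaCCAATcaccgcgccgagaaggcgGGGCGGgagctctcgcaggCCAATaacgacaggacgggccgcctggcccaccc
INSIG1: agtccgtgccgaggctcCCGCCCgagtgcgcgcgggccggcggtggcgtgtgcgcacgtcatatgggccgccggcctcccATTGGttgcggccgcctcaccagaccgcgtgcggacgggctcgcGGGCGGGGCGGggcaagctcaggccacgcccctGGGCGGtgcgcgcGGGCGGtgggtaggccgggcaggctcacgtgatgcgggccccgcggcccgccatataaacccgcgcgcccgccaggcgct
SREBF2: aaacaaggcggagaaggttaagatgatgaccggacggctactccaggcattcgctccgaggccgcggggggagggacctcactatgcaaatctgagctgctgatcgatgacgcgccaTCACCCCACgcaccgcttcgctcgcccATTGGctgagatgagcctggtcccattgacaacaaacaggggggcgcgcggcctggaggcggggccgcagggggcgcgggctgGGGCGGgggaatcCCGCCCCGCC
ACLY: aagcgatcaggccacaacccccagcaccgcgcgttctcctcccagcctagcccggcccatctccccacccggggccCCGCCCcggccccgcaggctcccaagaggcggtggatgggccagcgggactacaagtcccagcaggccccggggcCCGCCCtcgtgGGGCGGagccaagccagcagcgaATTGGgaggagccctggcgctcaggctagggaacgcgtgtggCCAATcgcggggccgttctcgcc
MSMO1 held 4 CCAAT motifs in this window and HMGCS1 a pair of them.

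CCAAT, the motif bound by NF-Y, a partner of SREBP, was frequent in the sterol enzymes. Of 32 members with a promoter in the RefSeq table, read from 250 bases before to 50 after the start, 20 (62.5%) held CCAAT on either strand. Among the sterol enzymes it was 12 of 15 (80.0%), among the fatty acid enzymes 3 of 7 (42.9%), and among all 27305 promoters 35.7%. GGGCGG, bound by Sp1, was in 30 of 32 (93.8%) members against 44.6% of all promoters and 70.1% of the 9669 of genes tested. The element spelled TCACNCCAC was in 1 of 32 (3.12%) against 1.15% of all promoters. That 1 was SREBF2, which codes for the SREBP that mainly drives sterol genes, and its promoter was chosen for printing once the match had been seen. None of the 3 motifs contains another, and a match describes letters in this window only.

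At 24 h, sterol enzymes were higher in the treated array than in the 24 h control almost throughout the pathway. Of 16 tested, 15 were higher and 11 by 2-fold or more, with a median difference of 1.29, against -0.0016 over all genes. The 11 came from every stage: ACAT2, HMGCS1, MVD, IDI1 and FDPS of the mevalonate and isoprenoid steps, SQLE and LSS, which make and close the sterol ring precursor, and MSMO1, HSD17B7, SC5D and DHCR7, which trim it to cholesterol. Over all members 12 of 32 were higher by 2-fold or more and 1 was lower, beside 2.24% higher and 1.02% lower among all genes. The twelfth was INSIG1, and the lower one was ABCG1. With the probe sets used, NSDHL missed 2-fold by little, at 0.99, and SQLE passed it by little, at 1.01. The other probe set of NSDHL gave 1.22.

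The size of these differences depended on the control. Against the 0 h control, the sterol median was 0.71 and 5 of 16 were higher by 2-fold or more: HMGCS1, MSMO1, IDI1, MVD and DHCR7. No member was lower by that much, beside 0.464% of all genes higher and 0.32% lower. The 24 h control was itself lower than the 0 h control in 14 of 16 sterol enzymes, with a median of -0.42. Only ACAT2 of the 32 was lower by 2-fold there and only ABCG1 higher, beside 1.48% and 0.843% of all genes. The part of the controls' own difference in the 24 h contrast can be read for each gene from the values that follow.

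HMGCS1, which makes HMG-CoA at the entry to the mevalonate pathway, had levels of 7.45, 7.60, 8.02, 8.24, 8.22, 8.43, 8.47 and 9.87 at 1, 2, 3, 4, 5, 6, 7 and 24 h of treatment, against 7.84 in the 0 h and 7.43 in the 24 h control. The arrays from 3 h on were above both controls. At 24 h it was 5.43-fold above the 24 h control and 4.08-fold above the 0 h control. Its other probe set above the filter gave a 24 h difference of 2.104, against 2.44 for the one used.

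MSMO1, a C-4 methyl sterol oxidase, had 9.58, 9.59, 9.97, 10.11, 10.04, 10.13, 10.30 and 11.60 in the treated arrays in the same order of hours, against 10.05 and 9.29 in the 0 and 24 h controls. Its treated values at 1 to 7 h straddled the 0 h control and were all above the 24 h control. IDI1, which isomerises isopentenyl diphosphate, had 9.76, 9.89, 10.08, 10.14, 10.24, 10.39, 10.55 and 11.49, against 10.10 and 9.67. It climbed at every successive hour and passed the 0 h control at 4 h. DHCR7, which catalyses the last reduction to cholesterol, had 9.17, 9.23, 9.56, 9.60, 9.73, 9.89, 9.88 and 10.74, against 9.71 and 9.10. It passed the 0 h control at 5 h.

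NSDHL, a sterol dehydrogenase of the C-4 demethylation complex, followed another course: 8.35, 8.49, 8.80, 8.92, 9.15, 9.01, 9.27 and 9.19, against 8.56 and 8.20 in the 0 and 24 h controls. With this probe set it was above both controls from 3 h on and no higher at 24 h than at 7 h. The other probe set of NSDHL, of similar mean level, was highest at 24 h, at 9.34 against 9.17 at 7 h. Its 24 h difference from the 24 h control was 1.22. SQLE, the squalene epoxidase, had 9.44, 9.60, 9.74, 9.87, 9.85, 10.07, 10.02 and 10.54, against 9.58 and 9.53. With this probe set the controls were nearly level with each other, and only the 1 h array lay below them. Another SQLE set was below its controls (both 8.08) at 1, 2 and 3 h, at 7.38, 7.54 and 7.97. Its mean over 4 to 7 h was 0.14 above the controls, against 0.40 for the one used. A further set had controls of 7.24 and 6.95 and was below both at 2 h alone, at 6.84. The plot of levels by hour shows the courses of the probe sets used.

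**Figure D1:**
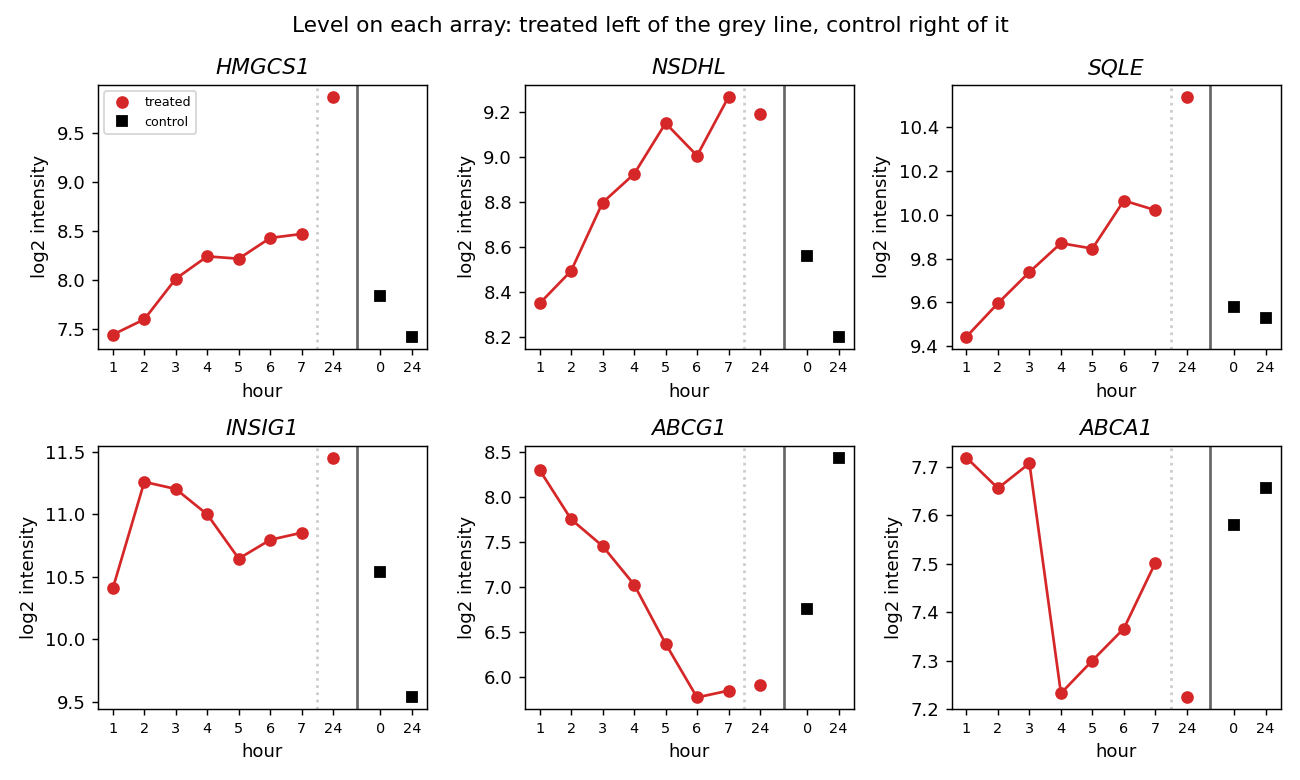
Log2 intensity of HMGCS1, NSDHL, SQLE, INSIG1, ABCG1 and ABCA1 (y axis) against hours of exposure (x axis), with 1 point per treated array and the 2 control arrays as separate marks. HMGCS1 ended at 9.87 against 7.43 in the 24 h control, while ABCG1 ended at 5.92 against 8.44.

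The remaining sterol enzymes fell into several courses. With the probe sets used, ACAT2, FDPS, LSS and HSD17B7 stayed below the 0 h control at every hour from 1 to 7. They exceeded it at 24 h, by 0.38, 0.79, 0.34 and 0.39. The same 4 were 1.25 to 1.73 above the 24 h control at 24 h. Another LSS probe set was above both controls (6.33 and 6.10) at 4 to 7 h, at 6.54 to 6.61. A further LSS set stayed below its 0 h control through 7 h. MVD and SC5D differed at 24 h by 1.32 and 1.17 from the 24 h control and by 1.24 and 0.96 from the 0 h control. EBP differed by 0.89 from the 24 h and by 0.39 from the 0 h control. EBP's other probe sets above the filter gave 1.26, 0.94 and -0.08 against the 24 h control. MVK, PMVK and TM7SF2 hardly differed at 24 h (0.22, 0.01 and -0.03 against the 24 h control). MVK's other probe sets above the filter gave 0.60 and 0.89.

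Over the first 7 h, sterol enzymes moved upward along the treated arrays from a low start. At 1 h their median difference was 0.0075 against the 24 h and -0.41 against the 0 h control, and 13 of 16 were nearer to the 24 h than to the 0 h control. For all members it was 20 of 32, beside 66.8% of all genes, so this position was shared with most of the array. Against the 0 h control the sterol median was then -0.35, -0.11, -0.063, -0.030, 0.041, 0.15 and 0.71 at 2, 3, 4, 5, 6, 7 and 24 h. Against the 24 h control it was 0.097, 0.19, 0.19, 0.33, 0.37, 0.44 and 1.29. The fatty acid median changed less: against the 24 h control its first value was 0.023 and those at 7 and 24 h were 0.076 and 0.39.

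**Figure D2:**
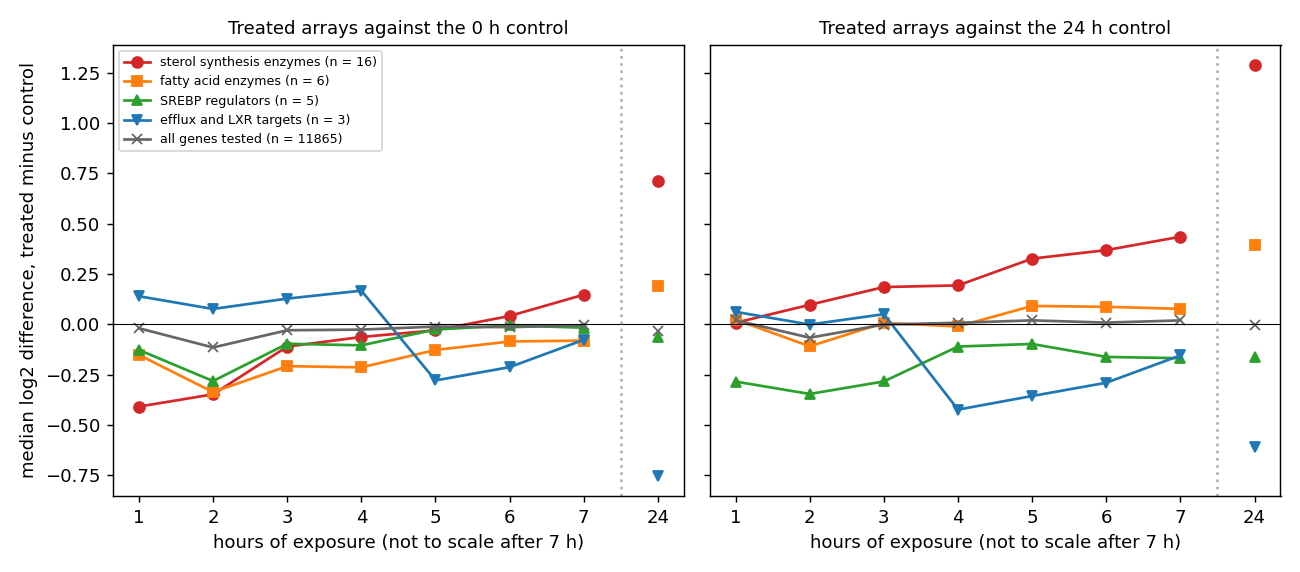
Median log2 difference of sterol enzymes (16 genes), fatty acid enzymes (6), regulators (5), efflux or LXR genes (3) and all 11865 genes tested against either control (y axis; left panel 0 h, right panel 24 h) at each treated hour (x axis). The sterol line reaches 1.29 against the 24 h control and 0.71 against the 0 h control at 24 h.

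A linear trend across treated hours 1 to 7, tested with limma over 7 arrays, called 12 of 32 members as rising and 2 as falling, beside 16.6% and 10.1% of all genes. The sterol enzymes made up 9 of the 12 (of 16 tested), with a median slope of 0.082 log2 units per hour, against 0.0048 over all genes. HMGCS1 rose by 0.18 ± 0.02 per hour (SE, limma adjusted p = 0.00207), NSDHL by 0.15 ± 0.02 (0.00285), DHCR7 by 0.13 ± 0.02 (0.00252) and IDI1 by 0.13 ± 0.01 (0.00145). MSMO1 rose by 0.12 ± 0.02 (limma adjusted p = 0.00618) and SQLE by 0.10 ± 0.02 (0.00496). ACAT2, MVD and FDPS also rose, at 0.10, 0.12 and 0.06 per hour (limma adjusted p = 0.0104, 0.0169 and 0.0267).

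Leaving out each hour in turn, HMGCS1, NSDHL, DHCR7, IDI1, MSMO1 and SQLE were called in all 7 limma fits, as were FASN and ABCG1. ACAT2 was lost without the 7 h array (limma adjusted p = 0.0599), MVD without 6 h (0.0584) and FDPS without 1, 2, 3 or 6 h (0.0514 to 0.0756). With the 0 h control entered as hour 0, 4 members rose, HMGCS1, IDI1, NSDHL and SQLE, and 0 fell, beside 3.76% and 4.1% of all genes, while the slopes of ACAT2 and FDPS turned to -0.019 and -0.0062. The trend is thus one within the treated arrays, which had no control at 1 to 7 h.

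Against both controls together the early hours gave no call. With hours 1 to 3 against control, 0 of 32 members passed in limma in either direction, beside 0.843% of all genes called higher and 1.12% lower. At an unadjusted limma p under 0.05 there were 8 members. The share of all genes at that looser threshold is not given here. Without the 24 h control, 5 members fell, ACAT2, ACLY, FDPS, HSD17B7 and LSS, beside 10.5% of all genes lower in that fit. Over all 8 treated arrays against control it was again 0 in either direction, beside 0.0506% higher and 0% lower of all genes. At an unadjusted limma p under 0.05 there were 4 members, again without a share of all genes.

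At 4 to 7 h, 3 sterol enzymes rose against control and no member fell, beside 7.6% higher and 6.19% lower of all genes. At an unadjusted limma p under 0.05 there were 12 of 32, and the share of all genes at that threshold is not given here. HMGCS1 rose by 0.71 ± 0.17 (SE, limma adjusted p = 0.0239), NSDHL by 0.71 ± 0.15 (0.0168) and SQLE by 0.40 ± 0.11 (0.0366). The share of members called was near that of the array. These calls did not hold without the 24 h control, which leaves a lone control in the fit. The estimates were then 0.50 for HMGCS1, 0.53 for NSDHL and 0.37 for SQLE, the last little changed. In that fit 0 members rose and 4 fell, namely ACAT2, FDPS, HSD17B7 and LSS, beside 5.6% of all genes higher and 6.95% lower. Without the 0 h control instead, 6 rose, DHCR7, HMGCS1, IDI1, INSIG1, MSMO1 and NSDHL, and ABCG1 fell, beside 6.25% higher and 3.32% lower. HMGCS1 was also lost without the 6 h or 7 h array (limma adjusted p = 0.0643 and 0.0551), and SQLE without 5, 6 or 7 h or the 0 h control (0.0577 to 0.0971). All 4 arrays of 4 to 7 h lay above both controls in 7 of 32 members, 5 of them sterol enzymes, beside 20.1% of all genes.

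Between the windows, hours 4 to 7 against hours 1 to 3, the same 3 enzymes rose and both sterol exporters fell, beside 12.2% higher and 5.18% lower of all genes. HMGCS1 rose by 0.65 ± 0.15 (SE, limma adjusted p = 0.0211), NSDHL by 0.54 ± 0.13 (0.027) and SQLE by 0.36 ± 0.09 (0.0316). The counts moved with single arrays. Without the 1, 2 or 6 h array 0 members were called, beside 4.16%, 0.00843% and 2.58% of all genes higher and 1.07%, 0.0169% and 0.826% lower. Without 5 h HMGCS1 alone was called (3.22% of all genes higher) and without 7 h ABCA1 alone (1.78% lower). With either control left out 10 members rose and 2 fell, beside 16.8% of all genes higher and 7.57% lower.

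**Figure D3:**
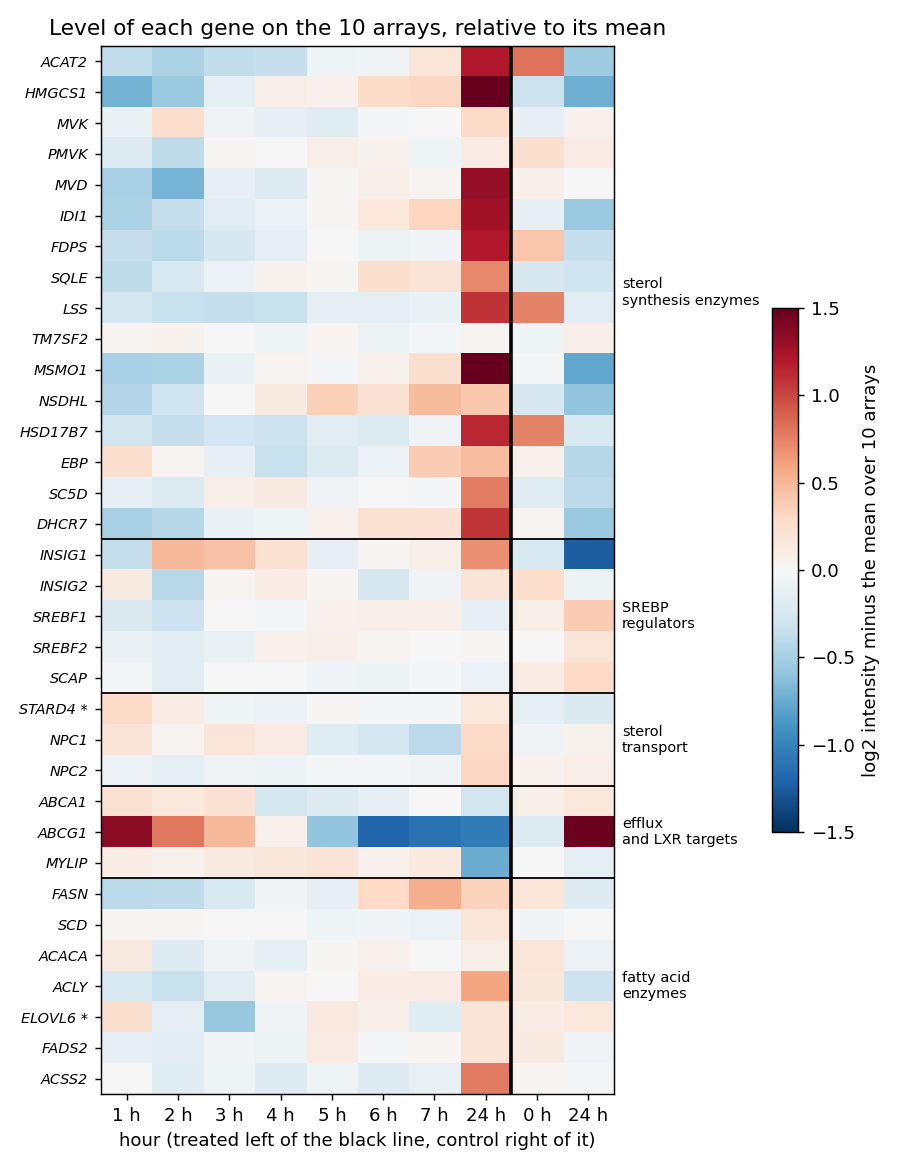
Heat map of the members with a probe set (rows, by role) on the 10 arrays (columns, treated hours first, then the controls), coloured by log2 difference from the gene's mean over the arrays, with strong differences shown at the end of the colour scale. Stars mark STARD4 and ELOVL6, which lay under the level filter. The treated 24 h column is the highest for 13 of 16 sterol enzymes.

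Of the regulators, INSIG1 differed most and the factors themselves differed little. INSIG1, itself a target of SREBP and a brake on it, had 10.41, 11.26, 11.20, 11.00, 10.64, 10.79, 10.85 and 11.45 at 1 to 7 and 24 h of treatment, against 10.53 in the 0 h and 9.53 in the 24 h control. With this probe set it was high by 2 h, lower again at 5 h and highest at 24 h, unlike the steady course of HMGCS1. Only the 1 h array of this set lay between the controls. Another INSIG1 set was below both controls at 1 h (8.35 against 9.14 and 8.45). Before 24 h it was highest at 4 h, at 9.45. A further set lay between its controls (9.57 and 8.80) at 1 and 5 h, at 9.51 and 9.55. Both were highest at 24 h. With the set used, the controls were 1.00 apart, and INSIG1 missed the limma threshold at 1 to 3 h (0.92 ± 0.30, SE, adjusted p = 0.116) and at 4 to 7 h (0.79 ± 0.29, 0.0933). Without the 1 h array the first of these passed.

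SREBF1, which codes for the SREBP tied more to fatty acid genes, had 9.80, 9.71, 10.02, 9.99, 10.08, 10.10, 10.09 and 9.89, against 10.10 and 10.39 in the 0 and 24 h controls. Every treated value was below both controls, at 5 to 7 h by a few hundredths below the 0 h one. Its slope over 1 to 7 h was 0.06 per hour (limma adjusted p = 0.0436), and it was lost in 6 of 7 fits that left out an hour. SCAP, the SREBP escort, had 9.32, 9.17, 9.33, 9.35, 9.29, 9.26, 9.32 and 9.25, against 9.45 and 9.64, with every treated array below both controls and no limma call in any comparison. SREBF2 and INSIG2 had 24 h differences of -0.16 and 0.28 from the 24 h control and no calls.

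Sterol efflux genes differed in the direction opposite to the enzymes. ABCG1, a transporter that hands cholesterol to lipoproteins, had 8.30, 7.76, 7.46, 7.03, 6.37, 5.78, 5.85 and 5.92 at 1 to 7 and 24 h, against 6.76 in the 0 h and 8.44 in the 24 h control. It began near the level of the 24 h control and was below both controls from 5 h on. It fell by 0.44 ± 0.03 per hour (SE, limma adjusted p = 0.000444), the smallest adjusted p of any member, and was called in all 7 fits that left out an hour. Between the windows it differed by -1.58 ± 0.41 (limma adjusted p = 0.0298). At 24 h the difference was -2.52 against the 24 h and -0.84 against the 0 h control, and its other probe set above the filter gave -1.93 against the 24 h control. A further 2 probe sets under the filter gave -1.58 and -1.43. The controls differed from each other by 1.68.

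ABCA1, which loads cholesterol onto apolipoprotein A-I, had 7.72, 7.66, 7.71, 7.23, 7.30, 7.37, 7.50 and 7.22, against 7.58 and 7.66. The 3 early arrays did not overlap with those of 4 to 7 h, and limma gave a difference of -0.34 ± 0.08 (SE, adjusted p = 0.0247). Its slope was not called (-0.06 per hour, limma adjusted p = 0.164): the level was lower at 4 h and did not decline further to 7 h. The other ABCA1 probe set above the filter was below both controls from 2 h on, at 6.67 there against 6.76 and 6.71. Its 24 h difference from the 24 h control was -0.71, against -0.43 for the one used. MYLIP, which marks lipoprotein receptors for degradation, had 8.40, 8.35, 8.41, 8.45, 8.48, 8.35, 8.43 and 7.53, against 8.29 and 8.15. It was level through 7 h and below both controls at 24 h alone, with differences of -0.75 against the 0 h and -0.61 against the 24 h control. Its other probe sets above the filter gave -0.11, -0.30, -0.01 and -0.34 against the 24 h control. A set under the filter gave 0.29. With the probe sets used, the 3 genes thus had 3 courses, a decline to 6 h, a step at 4 h and a low value at 24 h alone. The other probe sets of ABCA1 and MYLIP did not all follow these courses.

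**Figure D4:**
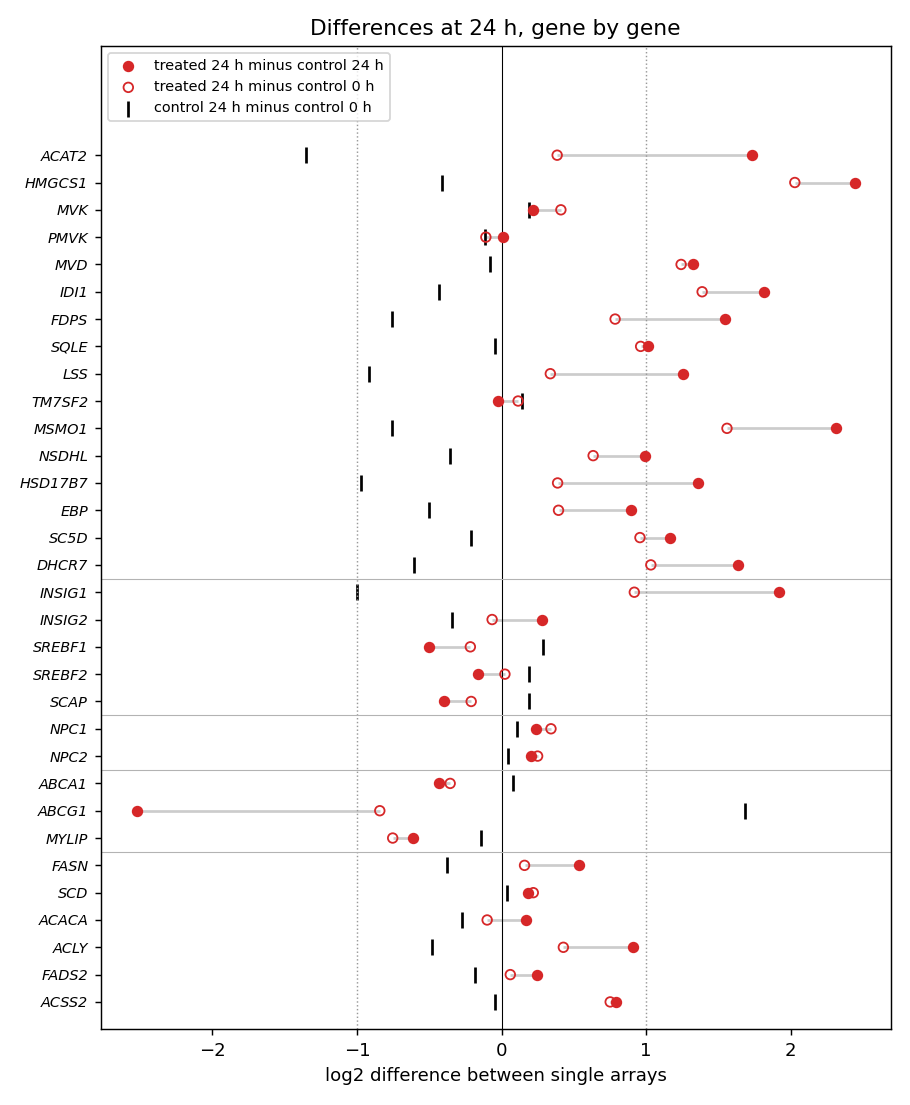
Log2 differences (x axis) for each tested member (rows, by role): treated 24 h minus control 24 h as filled circles, treated 24 h minus control 0 h as open circles, and control 24 h minus control 0 h as bars. HMGCS1 is at 2.44 and 2.03, ACAT2 at 1.73 and 0.38, and ABCG1 at -2.52 and -0.84.

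Sterol transport genes varied little. NPC1, which exports cholesterol from lysosomes, had 9.83, 9.67, 9.81, 9.75, 9.45, 9.37, 9.24 and 9.92, against 9.58 and 9.69. It fell by 0.10 per hour over 1 to 7 h (limma adjusted p = 0.0125), lost without the 7 h array (0.0638), and was back above both controls at 24 h. NPC2, its partner in the lysosome, had 11.35, 11.30, 11.38, 11.35, 11.41, 11.40, 11.38 and 11.74, against 11.49 and 11.53, so that the 24 h array stood above all the others. STARD4, a cytosolic sterol carrier, was at 3.41 to 3.90 on all arrays, under the filter.

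Fatty acid enzymes, with the probe sets used, were all higher at 24 h than in the 24 h control, by less than the sterol enzymes. ACACA's other probe set, also above the filter, gave -0.18, against 0.17 for the one used. With the probe sets used, the median of 6 was 0.39, 0 reached 2-fold, and against the 0 h control the median was 0.19 with 5 of 6 higher. ACLY, which makes cytosolic acetyl-CoA for both pathways, had 11.72, 11.62, 11.79, 11.99, 11.95, 12.06, 12.07 and 12.54, against 12.11 and 11.64 in the 0 and 24 h controls. It exceeded both controls at 24 h alone. Its other probe sets gave 24 h differences of 0.93 and 1.001 from the 24 h control, against 0.91 for the one used. ACSS2, which makes acetyl-CoA from acetate, had 8.30, 8.11, 8.23, 8.10, 8.23, 8.10, 8.18 and 9.07, against 8.32 and 8.28, flat until 7 h and above both controls at 24 h. FASN, the fatty acid synthase, had 9.71, 9.74, 9.89, 10.07, 9.999, 10.41, 10.66 and 10.46, against 10.30 and 9.92.

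FASN was therefore at its highest at 7 h and had passed both controls at 6 h. It rose by 0.15 ± 0.02 per hour (SE, limma adjusted p = 0.00309) in all 7 fits that left out an hour. ACLY rose by 0.08 ± 0.02 per hour (limma adjusted p = 0.017), lost without the 6 h array (0.0645). With the probe sets used, the other 4 tested, SCD, ACACA, FADS2 and ACSS2, were not called in any of the 5 tests. SCD, the delta-9 desaturase, was at 13.01 to 13.28 on all arrays with the probe set used. Its other probe sets were not flat. They had 12.17, 10.40 and 9.85 at 1 h, 12.57, 11.58 and 10.91 at 6 h, and 13.02, 12.21 and 11.63 at 24 h. Its 24 h difference from the 24 h control was 0.18 with the probe set used and 0.43, 0.75 and 0.81 with its other probe sets. ELOVL6, an elongase, was under the filter.

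With the probe sets used, the sterol enzymes thus differed from fatty acid enzymes in size at 24 h (median 1.29 against 0.39). They differed from the efflux and LXR genes in direction (median -0.61, which is the value of MYLIP). These differences between classes were not tested, and other probe sets of SCD, ACLY and MYLIP gave other sizes. The other probe set of ACACA gave the opposite sign. The level was the highest of all 10 arrays in the treated 24 h array for 20 of 32 members, among them 13 of 16 sterol and 4 of 6 fatty acid enzymes, beside 9.72% of all genes. It was the lowest in the 24 h control for 9 members, beside 10.8%, and 8 of these were sterol enzymes. Both held for 8 members, 7 of them sterol enzymes, beside 1.36% of all genes. Of 11 further probe sets above the filter for the genes past 2-fold at 24 h, 10 had the same sign as the one used, the exception being 1 of IDI1 at -0.34.

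Other gene groups moved along the same arrays. At 1, 7 and 24 h, the median of 10 DNA replication genes differed from the 24 h control by -0.029, 1.75 and 1.58, and that of 10 mitosis genes by 0.15, 0.34 and 1.30. The median of 10 ATF4 targets, genes of the amino acid stress response, differed by -0.30, -2.88 and -1.70. Between the controls, 24 h against 0 h, the 3 medians came to -1.44, -1.01 and 2.02. Their part in the sterol differences was not tested. The treated 24 h array set against the 0 h control gave 0.14, 0.27 and 0.12, beside 0.71 for the sterol enzymes.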

How the data were processed

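RNA of 8 treated and 2 control samples was measured on 10 arrays. The deposited values are log2 intensities of 54675 probe sets, which the authors computed by RMA (version unstated), per the submitters' processing notes. Also deposited was a filtered table of 7622 probe sets (13.9%), equal to the full one within 5e-09. The sources used here do not give its filtering rule.

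Genes were named from the platform annotation: 41097 probe sets carried 1 symbol, 1801 several and 11777 none. Of a gene's single-symbol probe sets the one with the highest mean was kept. A filter at the 40th percentile of gene means (log2 5.787) left 11865 genes to test. FDFT1 matched no single-symbol probe set, and those of CYP51A1 and FADS1 carried several symbols.

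limma 3.58.1 under R 4.3.3 (lmFit, eBayes, two-sided) tested treated against control over 10 arrays, the windows of hours 1 to 3 and 4 to 7 against control and against each other in 1 fit of 9 arrays, and the slope on hour over 7 arrays. Benjamini-Hochberg adjustment ran over all 11865 genes, with a threshold of 0.05. Single-array differences were counted at an absolute log2 difference of 1. A window's spread includes change with time. The number of arrays limits the precision.

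The members, the role classes and the lists were chosen with earlier results of these data known. Values per array are given for members called in any test (at most the 8 with the smallest adjusted p per test) and for the 3 members of each class with the largest 24 h difference. From 33 other lipid genes, of which 29 were tested, the 4 with the smallest p or largest difference per comparison are named. Alternatives were no filter, the 60th percentile, the mean of probe sets, cyclic loess, the filtered table, an intensity trend with robust prior, other time scales, another size threshold and each array left out. Fits with a lone control assume that it varies as treated arrays do. The fits were tested on simulated data. Python 3.11.15 with pandas 2.3.3 and matplotlib 3.10.9 read sequences and drew plots.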

Additional observations from a re-analysis of the deposited data

Results flagged for a closer look

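The treated 24 h array stood apart from the other 7 treated arrays in 14 of 32 members, by the gap to the nearest array as a share of the treated range, set against Dixon's critical value for groups of 8. Chance puts about 1 in 20 groups past it, counting any array of the group. Over all 11865 genes, any array stood apart by this measure in 1094 (9.22%). The 24 h array did so in 609 (5.13%), a share for 1 named array that the 1 in 20 does not match. The 24 h array was the highest for the sterol enzymes LSS (0.828), HSD17B7 (0.802), FDPS (0.754), SC5D (0.653), MSMO1 (0.644), MVD (0.616), ACAT2 (0.611), HMGCS1 (0.576), DHCR7 (0.544) and IDI1 (0.54). It was also the highest for ACSS2 (0.793), NPC2 (0.75) and SCD (0.588), and the lowest for MYLIP (0.864). These 7 arrays are of consecutive hours, so the gap falls on the longest interval of the series.

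Members that differed between hours 4 to 7 and hours 1 to 3 in limma were HMGCS1 (adjusted p = 0.0211), ABCA1 (0.0247), NSDHL (0.027), ABCG1 (0.0298) and SQLE (0.0316). Their log2 differences were 0.65, -0.34, 0.54, -1.58 and 0.36. None of these 5 kept its call without the 1, 2 or 6 h array.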

How the results depend on the processing

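Member counts with each array left out in turn were 0 to 1 rising and 0 to 5 falling for hours 1 to 3 against control, 0 to 6 and 0 to 4 for hours 4 to 7 against control, 0 to 10 and 0 to 3 between the windows, and 8 to 11 and 1 to 2 for the slope. Treated against control stayed at 0 in all of them. The filtered table held 15 members. With it, 1 member fell at 1 to 3 h (LSS), 1 at 4 to 7 h (ABCG1), 1 between the windows and 1 by slope. In the same order 0, 3, 4 and 9 members rose. Of its 4538 genes, 5.09%, 11.5%, 11.5% and 16.4% fell, and 2.8%, 15.5%, 30.9% and 31.5% rose. At the 60th percentile 0 fell between the windows and 1 by slope, since ABCG1 and ABCA1 were then not tested, beside 5.82% and 13.3% of all genes. With the mean of probe sets 6 rose and 1 fell between the windows, beside 12.2% and 3.72%, and 1 fell by slope, beside 7.48%. The 4 to 7 h call of SQLE was lost with no filter, with the mean of probe sets and in the filtered table (limma adjusted p = 0.0568, 0.0719 and 0.0791). Its window call was lost with cyclic loess and in the filtered table (0.0757 and 0.0568). By slope, FDPS and SREBF1 were lost with no filter (0.0595 and 0.0887), IDI1, NPC1 and SREBF1 with the mean of probe sets (0.45, 0.098 and 0.636) and ACAT2 on log2 of the hour (0.0543). With an intensity trend and robust prior 7 rose between the windows, beside 12.9% of all genes. With the 0 h control as hour 0 the slope gave 4 rising and 0 falling, beside 3.76% and 4.1% of all genes. The slopes of ACAT2 and FDPS then reversed to -0.019 and -0.0062. Slopes also reversed for SCD with the mean of probe sets (0.081, limma adjusted p = 0.0479) and for NPC1 in the filtered table (0.038). SCD's other probe sets had 12.17, 10.40 and 9.85 at 1 h and 12.59, 11.14 and 10.54 at 7 h. The SCD set used had 13.12 and 13.01. Their part in the reversal was not tested. The filtered table equals the full one in its values, so its NPC1 slope came from another probe set than the one used. NPC1's other sets, with means of 3.35, 4.26 and 5.37, lay under the filter. At a log2 difference of 0.58 the treated 24 h array had 2 members lower than the 24 h control, 11 higher and 2 lower than the 0 h control, and the 24 h control had 7 lower than the 0 h control. The shares of all genes at that size are not given here, so these counts do not set the members apart. No paired analysis was possible because the labels carry no replicate numbers. With 1 array per time, time, culture and array cannot be told apart, and probe sets near background bound what can be said of STARD4 and ELOVL6.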

Other observations

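Of 29 other lipid genes tested, 0 rose and 2 fell in limma at 1 to 3 h against control, 0 and 1 at 4 to 7 h, 2 and 1 between the windows, and 3 and 4 by slope. Over all genes these shares were 0.843% and 1.12%, 7.6% and 6.19%, 12.2% and 5.18%, and 16.6% and 10.1%. LPIN1, a phosphatidate phosphatase, fell at 1 to 3 h against control (-1.06 ± 0.19, SE, limma adjusted p = 0.029) and at 4 to 7 h (-0.999 ± 0.18, 0.0112). HACD3, a dehydratase of very long chain fatty acid elongation, fell at 1 to 3 h (-0.72 ± 0.12, limma adjusted p = 0.0193) and rose between the windows (0.44 ± 0.10, 0.0213). GPAM, which starts triglyceride synthesis, rose between the windows (0.51 ± 0.11, limma adjusted p = 0.017), and MBTPS2, a protease that cuts SREBP, fell (-0.31 ± 0.07, 0.025). By slope over 1 to 7 h, TMEM97, SLC25A1, which exports citrate from mitochondria, and HACD3 rose, and MBTPS2, OSBP, SOAT1 and GGPS1 fell, at a median of -0.0037 per hour over the 29. NR1H3, which codes for LXR alpha, differed by -0.33 at 4 to 7 h and was not called (limma adjusted p = 0.101).

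At 24 h the largest differences of these genes from the 24 h control were 1.14 for PNPLA3, 1.09 for ACSL1, 1.03 for ERG28 and -1.08 for MID1IP1. Against the 0 h control they were 0.48, 0.48, 0.65 and 0.10. The median over the 29 was 0.15 against the 24 h and 0.04 against the 0 h control.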
